A study of Homo sapiens with 12 samples.

Results

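Histone genes of the human glioblastoma line U-87MG were measured as 55 of the 15759 transcript clusters in the deposited table. A transcript cluster is the array's unit of measurement, a set of probes summarised to 1 value per array. A cluster was taken as a histone cluster if every gene symbol that the platform annotation gives it starts with HIST1H, HIST2H, HIST3H, HIST4H, H1F, H2AF or H3F, whatever its signal. Of the 55 clusters, 44 carried HIST symbols (the replication-dependent class) and 11 carried H1F, H2AF or H3F symbols (the replacement class). All 12 arrays came from cells with the control shRNA (shCtrl), and no cells with an shRNA against the aryl hydrocarbon receptor (AHR) were analysed here. The 3 groups of 4 arrays were cells given the solvent DMSO, cells given FICZ at 100 nM and cells given kynurenic acid (KynA) at 50 µM, each for 24 h, with DMSO at no more than 0.2% of the medium. FICZ is 6-formylindolo[3,2-b]carbazole, a photoproduct of tryptophan that binds AHR with high affinity, and KynA, a metabolite of the same amino acid, can also activate the receptor. The labels call the 4 arrays of a group biological replicates without saying whether each had a culture or day of its own. The p-values therefore speak only of the spread among these arrays, part of which may be technical.

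Histones package DNA into nucleosomes: H2A, H2B, H3 and H4 form the core around which DNA is wrapped, and linker histone H1 binds where DNA enters and leaves it. Replication-dependent histone genes lie together in a few genomic loci and are transcribed mainly during S phase, and most of their mRNAs end in a stem-loop in place of a poly(A) tail. Replacement histones are encoded by scattered single genes with polyadenylated mRNAs, are made throughout the cell cycle and are exchanged into chromatin outside replication. H2AFX, which encodes H2A.X, the variant phosphorylated at DNA breaks, is known to give both kinds of transcript. The labels give total RNA and a whole-transcript labelling kit.

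Many histone genes are close to identical in sequence, and this set what could be told apart. Of the 55 clusters, 28 carried 1 symbol and 27 several, and together they named 78 symbols. Each of the 8 clusters led by an H4 symbol named the same 14 H4 genes in another order, and 8 clusters named HIST1H3 genes. A cluster with several symbols is named here after its first symbol ("HIST1H3A-led") and stands for no single gene, and for pairs with the same first symbol the array's cluster number is added. Of the replication-dependent clusters 18 carried 1 symbol and 26 several, and of the replacement clusters 1 carried several, H3F3A with H3F3B and their pseudogenes. H1FX-AS1, which the symbol rule counts in the replacement class, is annotated as a long noncoding RNA, and HIST2H2BA, in the replication-dependent class, as a transcribed pseudogene.

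The bases before the start sites of 6 of these genes are shown because the 4 replication-dependent genes include both clusters that passed the test, the lowest value after KynA and the only positive value after FICZ of that class, and because H2AFX and H2AFJ are the replacement genes with the lowest values after FICZ. Each stretch holds the 200 bases before the RefSeq start site on GRCh38.p14, written along the gene's strand, with capitals on the motifs searched: TATAAA for the TATA box, the CCAAT box as its name spells it, an octamer core spelled TTTGCAT (7 of the 8 bases of the octamer of H2B promoters), and the H1 box spelled AAACACA, each on either strand, so that a motif on the other strand appears as its reverse complement. The stretches are chr6:26017788-26017987 (minus strand) for HIST1H1A, chr6:27867589-27867788 (minus) for HIST1H1B, chr6:27893225-27893424 (plus) for HIST1H2BO, chr1:228457874-228458073 (minus) for HIST3H2A, chr11:119095466-119095665 (minus) for H2AFX and chr12:14774205-14774404 (plus) for H2AFJ.
HIST1H1A: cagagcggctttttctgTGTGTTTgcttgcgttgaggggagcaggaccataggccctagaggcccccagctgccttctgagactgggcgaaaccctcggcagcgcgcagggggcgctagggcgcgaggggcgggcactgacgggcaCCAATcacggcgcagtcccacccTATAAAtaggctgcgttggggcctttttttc
HIST1H1B: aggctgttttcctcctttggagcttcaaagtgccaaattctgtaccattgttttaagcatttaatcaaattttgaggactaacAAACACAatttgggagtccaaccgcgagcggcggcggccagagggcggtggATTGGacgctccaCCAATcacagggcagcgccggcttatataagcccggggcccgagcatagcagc
HIST1H2BO: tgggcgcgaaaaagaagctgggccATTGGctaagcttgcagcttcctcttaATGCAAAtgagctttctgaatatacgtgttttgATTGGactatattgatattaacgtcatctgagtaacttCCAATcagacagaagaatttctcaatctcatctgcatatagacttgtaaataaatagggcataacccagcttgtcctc
HIST3H2A: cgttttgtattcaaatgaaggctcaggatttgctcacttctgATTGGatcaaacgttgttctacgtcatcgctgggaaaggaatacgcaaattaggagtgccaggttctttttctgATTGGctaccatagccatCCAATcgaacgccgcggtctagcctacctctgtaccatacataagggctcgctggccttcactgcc
H2AFX: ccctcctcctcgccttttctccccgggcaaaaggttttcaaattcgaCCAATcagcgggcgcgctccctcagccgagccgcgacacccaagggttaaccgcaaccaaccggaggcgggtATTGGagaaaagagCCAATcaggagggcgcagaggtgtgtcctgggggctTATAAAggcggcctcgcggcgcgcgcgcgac
H2AFJ: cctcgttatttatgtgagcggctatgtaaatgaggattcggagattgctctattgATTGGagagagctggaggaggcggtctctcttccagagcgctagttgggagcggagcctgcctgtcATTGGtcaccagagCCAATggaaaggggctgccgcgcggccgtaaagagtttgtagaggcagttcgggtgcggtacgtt
The current RefSeq symbols of these genes are H1-1, H1-5, H2BC17, H2AC25, H2AX and H2AJ, in that order. HIST1H1A carried a TATA box ending 26 bases before the start and a CCAAT box ending 50 bases before it, and its H1 box lay on the other strand, ending 177 bases before the start. HIST1H1B carried a CCAAT box on each strand and an H1 box ending 111 bases before the start, and HIST1H2BO carried 3 CCAAT boxes and 1 octamer core. HIST3H2A, H2AFX and H2AFJ each carried 3 CCAAT boxes in the printed stretch and no octamer core or H1 box, and H2AFX also carried a TATA box ending 26 bases before the start.

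RefSeq promoters were at hand for 61 of the 78 symbols, 51 replication-dependent and 10 replacement, and were searched over the 250 bases before the start. TATAAA was present in 33 of the 51 replication-dependent promoters (64.7%), in 4 of the 10 replacement promoters and in 10.8% of all 34943 promoters in the RefSeq table. CCAAT was present in 82.4% of the replication-dependent promoters against 32.0% of all promoters. It was found in every replication-dependent H1, H2A, H2B and H3 promoter in the table, in 3 of 12 H4 promoters and in 7 of 10 replacement promoters. The octamer core was found in 9 of 14 H2A and 5 of 8 H2B promoters, in 1 of 12 H3 promoters and in 0 of the H1 and H4 promoters, against 3.95% of all promoters. The H1 box was found in all 5 replication-dependent H1 promoters, in 0 of the other replication-dependent promoters and in 0 of the 10 replacement promoters, against 4.83% of all promoters. H2A and H2B genes that stand head to head share parts of these windows, and a match to these letters is a description of the sequence.

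Values are log2 signals after RMA, so a difference of 1 is a doubling, and levels are compared only within a cluster. Array medians lay between 8.30 and 8.33, and arrays correlated with each other at 0.938 to 0.975 over all clusters. The AHR target genes CYP1B1, TIPARP and AHRR rose with FICZ by 1.07, 1.21 and 0.97 (limma with Benjamini-Hochberg adjustment over all clusters, adjusted p = 0.0141, 0.00153 and 0.0124) and stood at 0.71, 0.61 and 0.54 with KynA, which did not pass. Of the glioblastoma markers all 7 had a cluster, with DMSO means from 8.03 for GFAP to 13.13 for VIM. Of markers of other cell types, 3 of 5 for leukocytes, 1 of 3 for endothelium, 3 of 3 for epithelium and 3 of 3 for neurons had a cluster, with DMSO means from 7.44 for CD3E to 8.69 for CDH1, and none of these genes or of the glioblastoma markers passed the test with either ligand. The lowest value in the table was 3.005, so no marker was at 0 and an array gives no true zero.

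With FICZ, 2 histone clusters fell, the linker histones HIST1H1A and HIST1H1B. A negative difference from DMSO was found in 43 of the 44 replication-dependent clusters and in 55.9% of all clusters. The median difference was −0.30 for the replication-dependent clusters (range −0.53 to 0.08) and −0.13 for the replacement clusters (range −0.83 to 0.51), beside −0.02 for all 15759 clusters. With KynA the medians were −0.04 and 0.02, and no histone cluster passed the test. Of the 44 and 11 clusters, 38 and 6 lay above the 50th percentile of signal in at least 4 arrays, and their medians with FICZ were −0.30 and −0.15. H2AFJ and H2AFY2, the ends of the replacement range, were not among these 6. The test was limma's fit of the 3 group means over all 15759 clusters with Benjamini-Hochberg adjustment, and a cluster passed at an adjusted p under 0.05. By that rule 2 of 44 replication-dependent and 0 of 11 replacement clusters fell with FICZ, where 15 of all clusters (0.0952%) fell, and 0 of either class rose, where 46 of all clusters (0.292%) rose.

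**Figure D1:**
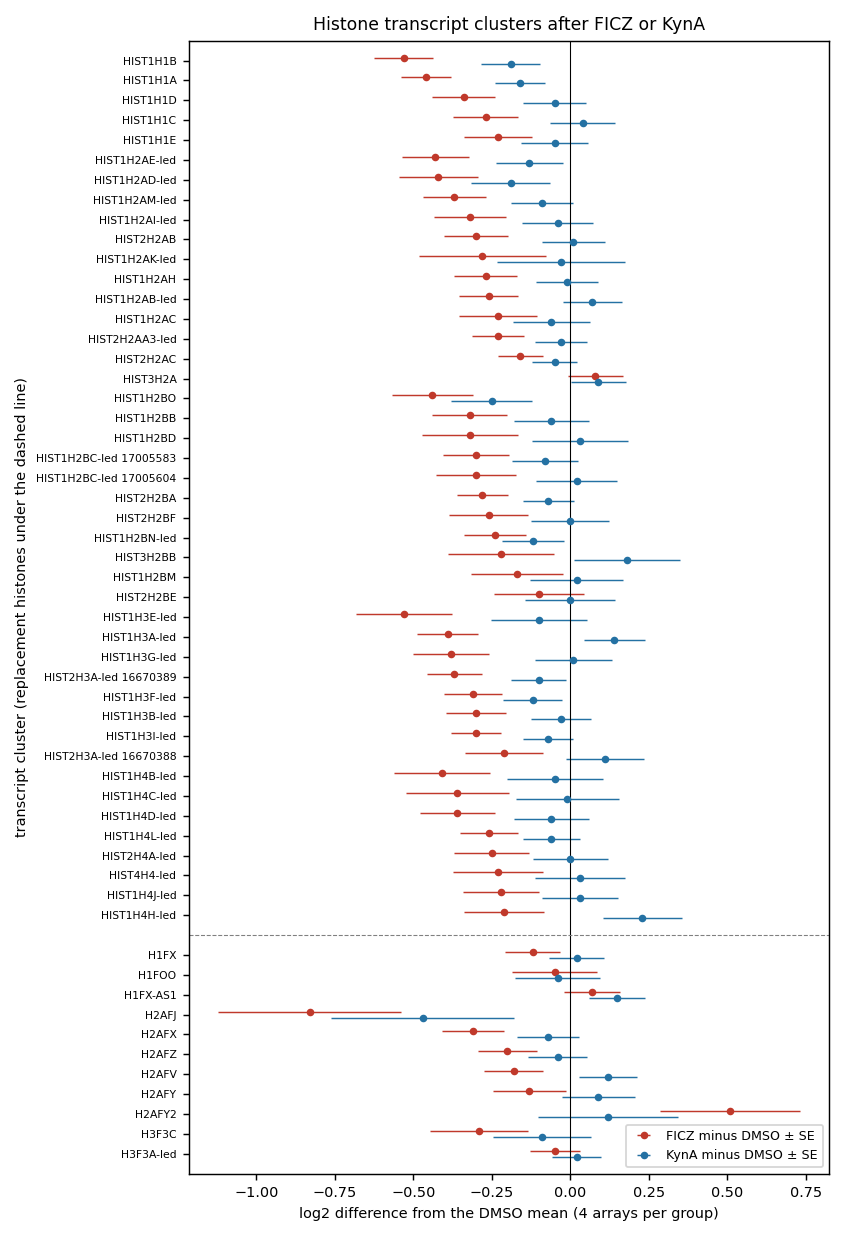
Log2 difference from the DMSO mean for each of the 55 histone transcript clusters after FICZ (red) or KynA (blue), with bars of 1 SE from the limma fit and 4 arrays per group; clusters are ordered by histone family, and replacement histones stand under the dashed line. The FICZ points of the replication-dependent clusters lie between −0.53 and 0.08 and their KynA points between −0.25 and 0.23.

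The linker histones held both calls. HIST1H1A, which encodes H1.1, had log2 signals of 10.94, 10.85, 11.02 and 11.12 on the DMSO arrays, 10.55, 10.49, 10.52 and 10.53 on the FICZ arrays and 10.76, 10.78, 10.96 and 10.81 on the KynA arrays. All 4 FICZ arrays lay below every DMSO and every KynA array, while the KynA and DMSO arrays overlapped. Its difference was −0.46 ± 0.0805 (SE, n = 4 per group; 1.38-fold lower) with FICZ (limma adjusted p = 0.023) and −0.16 with KynA. HIST1H1B, which encodes H1.5, read 9.25, 8.93, 9.07 and 8.98 with DMSO, 8.66, 8.60, 8.47 and 8.38 with FICZ and 8.82, 8.78, 8.89 and 8.97 with KynA. Again the FICZ arrays lay below all others, and KynA overlapped DMSO. The difference was −0.53 ± 0.094 (SE, n = 4 per group; 1.45-fold lower) with FICZ (limma adjusted p = 0.0251) and −0.19 ± 0.094 with KynA.

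The other 3 linker histones of the class had negative differences that did not pass. HIST1H1D, encoding H1.3, read 9.65, 9.65, 9.75 and 9.40 with DMSO and 9.37, 9.35, 9.36 and 9.02 with FICZ, a gap between the groups with no overlap and a difference of −0.34 (limma adjusted p = 0.173). HIST1H1C, encoding H1.2, stood at −0.27 and HIST1H1E, encoding H1.4, at −0.23, and in both the FICZ and DMSO arrays overlapped. FICZ array 4 was the lowest of its group in HIST1H1B, HIST1H1C, HIST1H1D and HIST1H1E but not in HIST1H1A, where the FICZ arrays had an SD of 0.0252 against 0.114 for DMSO. With KynA these 3 differences were −0.05 for HIST1H1D, 0.04 for HIST1H1C and −0.05 for HIST1H1E.

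**Figure D2:**
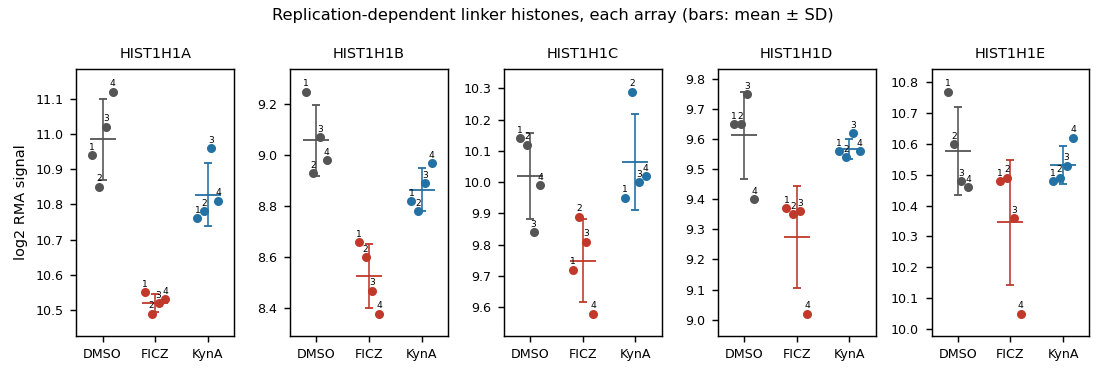
Log2 RMA signal of the 5 replication-dependent linker histone clusters on each of the 12 arrays, numbered by replicate, with the mean and SD of each group of 4; each panel has its own axis. The FICZ arrays lie below all DMSO arrays for HIST1H1A, HIST1H1B and HIST1H1D, and overlap them for HIST1H1C and HIST1H1E.

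Both calls lay close to the threshold. The calls ended in a fit on the 8 arrays compared alone, at adjusted p = 0.0838 for HIST1H1A and 0.0941 for HIST1H1B, and in 6 of the 12 limma fits that each left out 1 array. For HIST1H1A these were the fits without DMSO 1, 3 or 4 (adjusted p = 0.0663, 0.0809 and 0.0857) and without FICZ 1, 2 or 4 (0.0512, 0.0865 and 0.0606), and for HIST1H1B those without DMSO 1, 3 or 4 (0.0859, 0.0809 and 0.0566) and without FICZ 2, 3 or 4 (0.0559, 0.0524 and 0.084). The log2 differences in these 12 fits ran from −0.51 to −0.42 and from −0.58 to −0.47. The next histone clusters outside the threshold were HIST2H3A-led 16670389, an H3 cluster at −0.37 ± 0.0878 (adjusted p = 0.0932), and HIST1H2AE-led, an H2A cluster at −0.43 ± 0.106 (adjusted p = 0.105).

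Across the whole replication-dependent class the FICZ values lay to one side. Without adjustment, 31 of the 44 clusters were lower at p under 0.05 and 0 were higher, where 7.16% of all clusters were lower and 6.11% higher. The FICZ arrays lay below every DMSO array in 20 of the 44, where 4.12% of all clusters did so. In 36 of the 44 all 4 FICZ arrays lay below the DMSO mean, as they did in 17.2% of all clusters. Negative differences made up 55.9% of all clusters. These members are not independent of each other, since many share symbols, may share probes and all share the same arrays. Over the 18 clusters with 1 symbol alone, 17 were negative, 11 were lower at an unadjusted p under 0.05 and the median was −0.27. These 18 still share the arrays, and their median pair correlation within groups was 0.34. The count of 31 fell to 18 without DMSO array 1 and to 23 without FICZ array 4, where the shares over all clusters were 5.93% and 4.97%.

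The core histones shared this range, and are grouped here by first symbol. Of the 12 H2A clusters 11 were negative with FICZ (median −0.27), 9 were lower at an unadjusted p under 0.05 and 0 passed after adjustment. Over all clusters 55.9% were negative and 7.16% were lower at that threshold. HIST1H2AE-led, which names HIST1H2AE and HIST1H2AB, read 10.18, 10.02, 10.08 and 9.88 with DMSO and 9.66, 9.55, 9.84 and 9.40 with FICZ, so that the groups did not overlap, and 9.92, 9.87, 9.80 and 10.05 with KynA, which overlapped DMSO. HIST1H2AB-led names the same 2 genes in the other order and stood at −0.26 with FICZ, so the 2 clusters differ in size for one pair of genes. HIST1H2AD-led, at −0.42, names 1 H2A gene and 10 HIST1H3 genes, and HIST1H2AI-led, at −0.32, also names HIST1H3F, so neither reads H2A alone. HIST3H2A, a gene of the small HIST3 locus on chromosome 1, was the exception in direction, at 0.08 (limma adjusted p = 0.749). It read 7.69, 7.74, 7.57 and 7.44 with DMSO and 7.58, 7.85, 7.63 and 7.67 with FICZ, which overlapped. Its signal was low, and the cluster did not lie above the 50th percentile in at least 4 arrays.

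All 11 H2B clusters were negative with FICZ (median −0.28, 6 lower at an unadjusted p under 0.05, 0 after adjustment). The shares over all clusters were 55.9% negative and 7.16% lower without adjustment. HIST1H2BO read 8.75, 8.54, 8.32 and 8.39 with DMSO, 8.19, 8.29, 7.86 and 7.88 with FICZ and 8.14, 8.30, 8.46 and 8.10 with KynA. The FICZ arrays lay below all DMSO arrays, and 3 of the 4 KynA arrays did too. Its differences were −0.44 with FICZ (limma adjusted p = 0.169) and −0.25 with KynA, the lowest KynA value of the class. HIST2H2BE had the smallest H2B difference, −0.10 with FICZ, with 2 of its FICZ arrays among the DMSO values.

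The H3 and H4 clusters carry several symbols each. All 8 H3 clusters were negative with FICZ (median −0.34), 7 of them lower at an unadjusted p under 0.05. Among all clusters 55.9% were negative and 7.16% were lower at that threshold. HIST1H3E-led had the lowest value of the class, level with HIST1H1B to 2 decimals, at −0.53 ± 0.154 (limma adjusted p = 0.165), on readings of 8.37, 7.93, 8.22 and 8.32 with DMSO and 7.86, 7.63, 7.96 and 7.26 with FICZ, where 1 FICZ array lay above the lowest DMSO array. HIST2H3A-led 16670389 read 10.24, 10.04, 10.14 and 10.12 with DMSO and 9.84, 9.77, 9.87 and 9.58 with FICZ, with no overlap. All 8 H4 clusters were negative too (median −0.26, range −0.41 to −0.21), 4 of them at an unadjusted p under 0.05. Although all 8 name the same 14 genes, they did not give the same reading: with KynA, HIST1H4H-led stood at 0.23, the highest KynA value of the class, and the other 7 between −0.06 and 0.03.

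By the genomic locus of the first symbol, all 32 HIST1 clusters, whose first symbols are genes on chromosome 6, and all 9 HIST2 clusters were negative with FICZ, with medians of −0.31 and −0.25. Of all clusters 55.9% were negative. The 2 HIST3 clusters stood at 0.08 for HIST3H2A and −0.22 for HIST3H2BB, and the 1 HIST4 cluster at −0.23. The HIST3H2A and HIST3H2BB genes stand head to head with overlapping promoter windows, as do HIST1H2AM and HIST1H2BO (clusters at −0.37 and −0.44), HIST1H2AK and HIST1H2BN (−0.28 and −0.24) and HIST2H2BE and HIST2H2AC (−0.10 and −0.16). The H4 clusters name genes of the HIST1, HIST2 and HIST4 loci together, so this split does not separate loci for H4. In 3 of the 4 pairs both values were negative. The HIST1H2BN-led cluster also names HIST1H2AK, so that pair is not measured apart. The HIST1H2AM-led and HIST1H2AK-led clusters each name the same 6 H2A genes, so neither value belongs to the paired gene alone.

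The replacement histones gave no call with FICZ, and 9 of 11 were negative, where 55.9% of all clusters were. Without adjustment 2 were lower at p under 0.05, H2AFX and H2AFJ, and 1 higher, H2AFY2. The shares over all clusters were 7.16% lower and 6.11% higher. In 2 of the 11 the FICZ arrays lay below every DMSO array, where 4.12% of all clusters did so. In 5 of the 11 all 4 FICZ arrays lay below the DMSO mean, as in 17.2% of all clusters. H2AFX read 8.58, 8.46, 8.60 and 8.48 with DMSO, 8.31, 8.16, 8.42 and 8.00 with FICZ and 8.44, 8.32, 8.52 and 8.56 with KynA. Its FICZ arrays lay below all DMSO arrays, and its difference of −0.31 ± 0.0985 (limma adjusted p = 0.205) was close to the median of the replication-dependent class. With H2AFX counted in that class and H1FX-AS1 left out, a grouping chosen after the values were seen, the replacement median stayed at −0.13 over 9 clusters and the replication-dependent median at −0.30 over 45.

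H2AFJ and H2AFY2 had the extreme values of the class, in opposite directions, with overlapping groups in both, and FICZ array 4 was the most extreme array of each. H2AFJ was dim, one of the 5 histone clusters that did not lie above the 25th percentile in at least 4 arrays, with H1FX-AS1, HIST1H2AK-led, HIST3H2BB and HIST1H4H-led. H2AFJ, which encodes the variant H2A.J, read 7.36, 7.36, 6.86 and 7.44 with DMSO, 6.79, 7.17, 6.34 and 5.41 with FICZ and 6.84, 6.42, 6.87 and 7.03 with KynA. The difference was −0.83 ± 0.292 with FICZ (limma adjusted p = 0.249), −0.49 without FICZ array 4, and −0.47 ± 0.292 with KynA. H2AFY2, which encodes macroH2A2, a variant with a large globular domain, read 7.36, 7.59, 7.75 and 7.20 with DMSO and 7.64, 7.92, 7.59 and 8.81 with FICZ. FICZ array 4 stood above the rest, and the difference was 0.51 ± 0.223 (limma adjusted p = 0.347) and 0.24 without that array, beside 0.12 with KynA. H2AFY, encoding macroH2A1, stood at −0.13 with FICZ and 0.09 with KynA.

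Of the H2A.Z genes, H2AFZ stood at −0.20 with FICZ, its arrays below all DMSO arrays, and at −0.04 with KynA, and H2AFV at −0.18 with FICZ and 0.12 with KynA. H2A.Z is the variant placed around transcription start sites by remodelling complexes such as SRCAP. H3F3A-led, the cluster for the H3 variant of transcribed chromatin, read 10.38, 10.31, 10.33 and 10.32 with DMSO and 10.39, 10.23, 10.40 and 10.12 with FICZ, an overlap with a difference of −0.05 ± 0.0795 and a 95% interval from −0.22 to 0.12. H3F3C, a primate H3 variant gene known from testis, stood at −0.29 ± 0.156. The linker variant H1FX stood at −0.12 and the oocyte linker histone H1FOO at −0.05, both with overlapping groups, and H1FX-AS1 at 0.07. CENPA, the centromeric H3 variant, which the symbol rule does not take in, stood at −0.34 with FICZ (limma adjusted p = 0.205) and −0.04 with KynA.

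**Figure D3:**
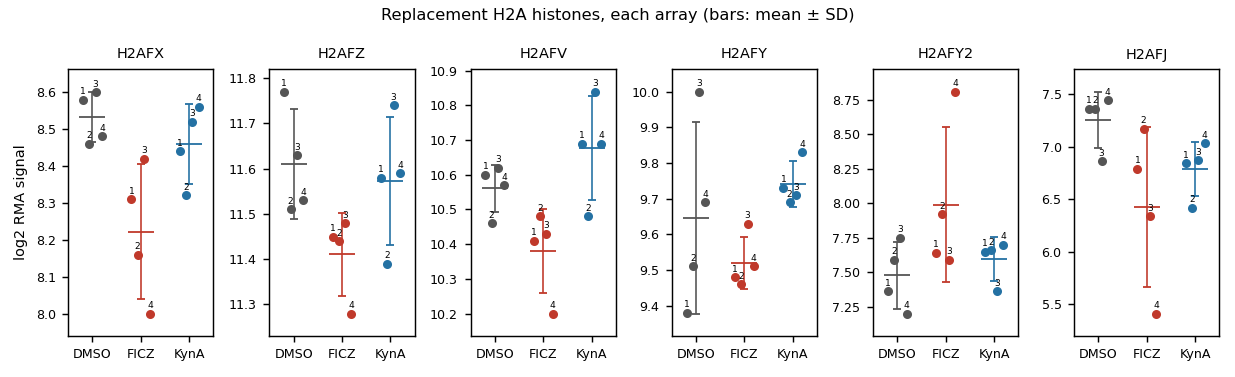
Log2 RMA signal of the 6 replacement H2A clusters on each of the 12 arrays, numbered by replicate, with the mean and SD of each group of 4; each panel has its own axis. FICZ array 4 is the lowest FICZ array for H2AFX, H2AFZ, H2AFV and H2AFJ and the highest for H2AFY2, where it reads 8.81.

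The classes were set side by side on each array as the mean deviation of their clusters from the DMSO mean. For the replication-dependent class this was 0.133, 0.005, −0.058 and −0.081 on the DMSO arrays, −0.268, −0.201, −0.229 and −0.490 on the FICZ arrays and −0.115, −0.009, 0.016 and −0.005 on the KynA arrays. All 4 FICZ arrays lay below all DMSO and KynA arrays. For the replacement class the values were −0.012, −0.024, 0.028 and 0.008 with DMSO, −0.059, −0.095, −0.163 and −0.261 with FICZ and −0.001, −0.111, 0.020 and 0.019 with KynA, so that the FICZ arrays lay below all DMSO arrays but 2 of them lay within the KynA range. Over all clusters the group means moved by −0.008 with FICZ and 0.003 with KynA. FICZ array 4 was the lowest FICZ array in 33 of the 44 replication-dependent clusters and DMSO array 1 the highest DMSO array in 30. These counts were not made over all clusters. FICZ array 4 also stood apart over all clusters, with a mean deviation of −0.037. On it 8842 of 15759 clusters lay below the DMSO mean, against 7895 to 8254 on the other FICZ arrays. Its array weight was the lowest, 0.552, against 0.824 to 1.28 on the other arrays. No test of the difference between the classes was made, since clusters within a class share arrays, and in part symbols, and are not replicates.

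**Figure D4:**
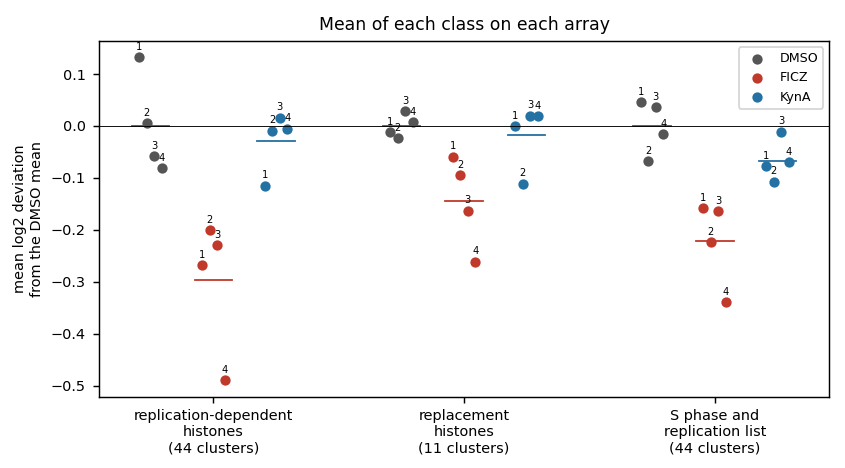
Mean log2 deviation from the DMSO mean on each array, numbered by replicate, for the 44 replication-dependent clusters, the 11 replacement clusters and 44 S phase and replication genes; lines are group means of 4 arrays. The FICZ arrays of the replication-dependent class lie between −0.490 and −0.201 and those of the replacement class between −0.261 and −0.059.

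Within groups the replication-dependent clusters moved together from array to array. Over the 12 arrays, with group means removed, the median correlation of 946 pairs was 0.43, and it was 0.41 over the 878 pairs with no symbol in common and 0.34 over the 153 pairs of clusters with 1 symbol. It was 0.13 among replacement clusters, 0.13 between the classes, 0.21 among the S phase genes and 0.01 over every 40th cluster of the table. These values describe 12 arrays normalised together, and the 946 pairs include clusters with shared symbols, which may share probes. HIST1H1A, at −0.19, and HIST1H4H-led, at −0.54, were among the clusters that ran against the mean of the other replication-dependent clusters in this sense, as did H2AFY2 at −0.67 in the replacement class, while HIST1H1B followed it at 0.66.

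KynA was compared with the same 4 DMSO arrays as FICZ, so errors of those arrays enter both. Of the 44 replication-dependent clusters 29 were negative and 15 positive with KynA, 0 passed the limma test, 0 had an unadjusted p under 0.05 and in 0 did the groups separate in either direction. Over all clusters 1 passed (0.00635%), 3.24% had an unadjusted p under 0.05, 50.9% were negative and 1.14% lay wholly below DMSO, as many as lay wholly above it. The 95% intervals of single replication-dependent clusters reached from −0.53 to 0.55, and a p that misses the threshold does not show that KynA left a cluster unchanged. HIST1H1A and HIST1H1B had all 4 KynA arrays below their DMSO means, as 7 of the 44 clusters did against 9.56% of all clusters. In 3 of the 44 all 4 KynA arrays lay above the DMSO mean, as in 1663 of all 15759 clusters. Of the replacement clusters 5 were negative and 6 positive.

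FICZ and KynA were also compared directly, at doses that differ, 100 nM and 50 µM. All 44 replication-dependent clusters were lower with FICZ than with KynA, with a median of −0.26, where 55.3% of all clusters were lower. None passed the limma test, by which 3 of all clusters passed (0.019%). Without adjustment 27 were lower at p under 0.05, against 4.45% of all clusters, and in 18 the FICZ arrays lay below all KynA arrays, against 2.5%. The count of 27 fell to 14 without FICZ array 4 (3.24% of all clusters) and to 17 without KynA array 3 (3.53%), and the count of 18 rose to 28 without FICZ array 3 (5.33% of all clusters). The replacement clusters had a median of −0.16, with 2 lower at an unadjusted p under 0.05, H2AFX at −0.24 and H2AFV at −0.30.

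HIST1H3A-led came closest to passing. It read 10.26, 10.18, 9.97 and 9.98 with DMSO, 9.70, 9.87, 9.72 and 9.55 with FICZ and 10.23, 10.12, 10.36 and 10.23 with KynA. The FICZ arrays lay below all others. Its difference from KynA was −0.53 ± 0.0971, with a 95% interval from −0.74 to −0.32 and limma adjusted p = 0.175, on a value of −0.39 against DMSO with FICZ and 0.14 with KynA. HIST1H4H-led stood at −0.44 and HIST1H1B at −0.34 (limma adjusted p = 0.471 and 0.462).

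Genes that make, process and deposit histones were taken as lists beside the histones. Of 17 genes for histone gene transcription and mRNA 3′ end processing, 16 had a cluster with 1 symbol. With FICZ all 16 were negative (median −0.17), 4 were lower at an unadjusted p under 0.05 and 0 passed. Over all clusters 55.9% were negative and 7.16% were lower at that threshold. ERI1, an exonuclease that trims the histone mRNA stem-loop, stood at −0.42 ± 0.0896 (limma adjusted p = 0.0736), with DMSO arrays from 8.63 to 8.97 and FICZ arrays from 8.30 to 8.38. CSTF2, a cleavage factor, stood at −0.41 (adjusted p = 0.179) and CCNE2, a cyclin E that drives S phase entry, at −0.38 (adjusted p = 0.216). SLBP, the stem-loop binding protein, stood at −0.29 and NPAT, the transcriptional coactivator of histone genes, at −0.16.

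Of 24 histone chaperones and deposition factors 23 had a cluster under the symbol listed. With FICZ 21 were negative (median −0.12), 6 were lower at an unadjusted p under 0.05 and 0 passed. The shares over all clusters were 55.9% negative and 7.16% lower without adjustment. ASF1B, the chaperone of newly made H3 and H4 in proliferating cells, stood at −0.43 ± 0.108 (limma adjusted p = 0.108), with DMSO arrays from 9.78 to 9.90 and FICZ arrays from 9.13 to 9.67. IPO4, the importin that carries H3 and H4 into the nucleus, stood at −0.32, and SRCAP, which exchanges H2A.Z into nucleosomes, at −0.29. HIRA and DAXX, which deposit the replacement H3, stood at −0.13 and −0.01. Elsewhere in the list UBN1 stood at −0.25, CABIN1 at −0.09, ATRX at 0.23, CHAF1A at −0.13 and CHAF1B at −0.09.

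Of 45 S phase and replication genes, MCM2 among them as in the chaperone list, 44 had a cluster. With FICZ all 44 were negative (median −0.23), 20 were lower at an unadjusted p under 0.05 and 0 passed. Among all clusters 55.9% were negative and 7.16% were lower at that threshold. RFC3 and RFC4, subunits of the clamp loader, stood at −0.32 and −0.41 (limma adjusted p = 0.0855 and 0.0988), and GINS2, a subunit of the replicative helicase, at −0.46 (adjusted p = 0.131). The mean of this list was −0.158, −0.223, −0.164 and −0.339 on the FICZ arrays and −0.078, −0.107, −0.011 and −0.070 on the KynA arrays, lowest on FICZ array 4 as for the replication-dependent histones. With KynA the medians of the 3 lists were −0.05, −0.03 and −0.07, in the order given here. Negative with KynA were 14 of 16, 15 of 23 and 37 of 44 genes, where 50.9% of all clusters were. The KynA arrays lay below every DMSO array in 0, 0 and 3 of them, as in 1.14% of all clusters. The mean over all clusters was also lowest on FICZ array 4, at −0.037. On FICZ array 2 the S phase mean was −0.223, while the replication-dependent mean was −0.201, the highest FICZ array of that class. With group means removed, the median correlation between replication-dependent clusters and S phase genes was 0.22, against 0.43 among the replication-dependent clusters. The S phase list was lower with FICZ, as the histone values were, and its part in them was not tested. In RNA from whole cultures, fewer cells in S phase and less histone RNA per cell cannot be told apart.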

How the data were processed

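Total RNA of 12 samples was labelled and hybridised to whole-transcript arrays, 1 per sample. The authors deposited log2 signals, summarised with oligo's RMA according to the submitters' processing notes. Versions, the array annotation and any filter on dim clusters are not stated in the labels or files. Read depth does not apply, and precision is limited by the number of arrays (median SE of a log2 difference 0.116).

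Symbols came from the platform annotation (13577 clusters with 1, 744 with several, 1438 with none), and all 78 histone symbols matched a current RefSeq gene. All 15759 clusters were fitted with limma 3.58.1 in R 4.3.3 (group means, 9 residual and 4.18 prior degrees of freedom, two-sided). No further filter on dim clusters was applied. Whether the deposited table had been filtered in a way that let a histone in through the group where it was high is not known. Of the 55 histone clusters, 50 lay above the 25th percentile in at least 4 arrays. On simulated data the fit called 44 of 100 clusters set at −0.5 with FICZ and 95 of 100 set at −1, with 11 false calls. Clusters were drawn independently there, unlike the histone clusters. Differences of the size seen here can therefore be missed. The members, lists and tests were chosen with earlier results of these data known. Named clusters were HIST1H1B, every called cluster, the 4 smallest p and the extreme values per class and comparison. Also named were the 2 on either side of the threshold, all replacement clusters and 3 genes per other list. HIST1H1C, HIST1H1D, HIST1H1E, HIST1H2AB-led, HIST1H2AD-led, HIST1H2AI-led, HIST2H2BE, HIST2H2BA and the head-to-head pairs were named after their values were seen. So were SLBP, NPAT, HIRA, DAXX, UBN1, CABIN1, ATRX, CHAF1A and CHAF1B. Promoters came from RefSeq (GRCh38.p14). Alternatives were filters at the 25th and 50th percentile, clusters with 1 symbol, median centring, cyclic loess, a trended and robust variance, array weights, the 8 arrays compared, a replicate block and leaving out each array. Plots used Python 3.11.15 with matplotlib 3.10.9.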

Additional observations from a re-analysis of the deposited data

Results flagged for a closer look

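In 171 groups of 4 arrays, those of all 55 histone clusters and of the mean of each class, 8 held an array whose gap to its nearest neighbour as a share of the group's range was over Dixon's 95% critical value for 4 samples. Chance flags about 1 in 20 groups. On the FICZ arrays, HIST1H1D read 9.02 on array 4, below 9.35 to 9.37 on the others. On DMSO array 1, HIST1H2BB read 10.39, above 10.14 to 10.15, and HIST1H3G-led 11.09, above 10.68 to 10.74. H2AFJ read 6.86 on DMSO array 3, below 7.36 to 7.44. HIST3H2A read 7.76 on KynA array 2, above 7.67 to 7.68. H2AFY2 read 7.36 on KynA array 3, below 7.65 to 7.70. H3F3A-led read 10.3 on KynA array 2, below 10.36 to 10.37. The mean of the replacement clusters stood at −0.11 on KynA array 2, against 0.00 to 0.02 on the other KynA arrays.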

How the results depend on the processing

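The medians of both classes kept their sign in the FICZ comparisons under every alternative run, from −0.33 to −0.24 against DMSO and from −0.31 to −0.20 against KynA for the replication-dependent clusters, and from −0.19 to −0.11 and −0.21 to −0.12 for the replacement clusters; with KynA against DMSO they ran from −0.07 to 0.02 and from −0.01 to 0.03. The number of histone clusters called with FICZ was 2, and became 3 with the filter at the 50th percentile (HIST2H3A-led 16670389 added), 5 with a trended, robust variance (HIST1H1A, HIST1H1B, HIST2H3A-led 16670389, HIST1H2AE-led and HIST1H3I-led), 0 with only the 8 arrays compared and 0 to 2 leaving out 1 array. No histone was called with KynA or between the ligands in any of the 12 fits without 1 array or the 9 other fits. Over all clusters, 61 called with FICZ became 102 with the filter at the 50th percentile, 130 with a trended, robust variance, 32 with only the 8 arrays compared and 28 to 91 leaving out 1 array; 1 called with KynA became 2 with either filter, 3 with a trended, robust variance, 0 with only the 8 arrays compared and 0 to 2 leaving out 1 array; 3 called between the ligands became 1 with only the 8 arrays compared and 0 to 3 leaving out 1 array. The cause of these changes was not tested. Cyclic loess took the replication-dependent FICZ median from −0.30 to −0.25. Arrays with the same replicate number correlated, as deviations from their group means, at −0.12 to 0.156, not over 0.1 in every pair, so the numbers were not taken to pair samples. With the replicate number as a random block (correlation 0.0553) HIST1H1A and HIST1H1B were called as before, 2 histones in all, with 34 replication-dependent clusters lower at an unadjusted p under 0.05 and 89 clusters called in all with FICZ. Values near 0 changed sign in places: H1FOO with array weights stood at 0.02 between the ligands. Over the alternatives, most of them with 1 array left out, H1FOO ran from −0.14 to 0.03 with FICZ, −0.13 to 0.03 with KynA and −0.09 to 0.06 between them, H1FX with KynA from −0.01 to 0.06, H2AFZ with KynA from −0.09 to 0.02, H3F3A-led with FICZ from −0.09 to 0.00, H3F3C with KynA from −0.20 to 0.05 and HIST3H2A between the ligands from −0.07 to 0.02. The filter at the 25th percentile left out 5 histone clusters, H2AFJ and HIST1H4H-led among them.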

Other observations

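A pair of clusters held histone symbols but fell outside the symbol rule because they also name another gene. The one led by H3F3B, which also names a microRNA gene, stood at 0.09 with FICZ and 0.14 with KynA, and the one led by HIST1H2BG, which also names NCALD, at −0.20 and −0.15, and none of these passed the limma test.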
